A study of Mus musculus with 2 samples.

Results

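Apelin and its receptor are a peptide ligand and a G protein-coupled receptor encoded by Apln and Aplnr, and these 2 genes of the 31055 features counted were followed across the cells of tumor blood vessels. They were chosen by symbol. Orthotopic PyMT (mammary) and KPC (pancreatic) tumors were grown in wild-type female C57BL6 mice that were 6 weeks old when 100000 tumor cells were implanted, and were taken 10 days later. Cells bearing CD45, EpCAM, Ter119, podoplanin or Annexin V were depleted, endothelial cells (ECs) were sorted, and 1 droplet library with 3′ tag counting was sequenced per tumor model. There was 1 library per model and no replicate, so every interval given is a 95% interval for counting error alone, no p-value is given, and a difference between the libraries cannot be told apart from tumor site, digestion or library.

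Apelin is cleaved from a secreted precursor, and its shorter forms share the C-terminal end that binds the receptor. In growing vessels Apln is known as a gene of tip cells, the ECs that lead a sprout, whereas Aplnr is known from venous ECs and from the ECs behind the tip. Activation of the receptor lowers cyclic AMP through inhibitory G proteins and recruits arrestins, and a second ligand, Elabela, is encoded by Apela.

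The coding sequence of the ligand is shown because its last codons encode the peptide that binds the receptor. It runs over 231 bases, or 77 codons, on the minus strand of chrX:48028302-48034505 (GRCm38, GENCODE M21). Below, the capitals mark the last 13 codons before the stop, which encode the receptor-binding peptide apelin-13.
Apln: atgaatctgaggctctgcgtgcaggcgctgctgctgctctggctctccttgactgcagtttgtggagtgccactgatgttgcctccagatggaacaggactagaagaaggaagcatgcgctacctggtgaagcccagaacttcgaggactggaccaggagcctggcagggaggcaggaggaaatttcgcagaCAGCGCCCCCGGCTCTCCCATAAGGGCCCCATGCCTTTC
The gene (ENSMUSG00000037010) occupies chrX:48025146-48034853 and has 3 exons, of which exon 3, with 2562 bases, holds no coding base. Aplnr (ENSMUSG00000044338) lies on the plus strand of chr2:85136225-85139923 as 1 exon of 3699 bases, 1131 of them coding. Neither gene overlaps another annotated gene, so no antisense or overlapping partner shares their reads.

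Of 12464 PyMT and 10236 KPC barcodes, 11744 and 9591 passed a minimum of 500 genes and had mitochondrial transcripts at less than 10% of their unique molecular identifiers (UMIs). Each cell was placed in the first of 9 classes whose marker UMIs it met, or in the class other. The 6 classes taken as blood ECs (BECs), namely tip, cycling, capillary, venule, artery and other, held 10677 PyMT and 7433 KPC cells with a median of 3921 and 2753 UMIs. Marker genes that the class rules did not use put artery, cycling, lymphatic, pericyte and fibroblast cells in their own class in both libraries, and 3 of 6 tip genes were highest in the tip class of each library. Of 6 venule genes, 3 in PyMT and 4 in KPC were highest in the venule class. All 5 capillary genes were highest in the capillary class in KPC but 0 of 5 in PyMT, where their summed level was 5243 CPM, that is UMIs of a gene scaled to 1000000 UMIs of the class, against 11235 CPM in the 27 cells of the pericyte class. Cells that met the Krt8 and Krt18 rule carried 4451 CPM of 4 other epithelial genes in KPC but 40.1 CPM in PyMT, so that class is called here by its rule. More than 1 rule was met by 13.5% of the PyMT and 12.4% of the KPC cells, and 170 barcode sequences occurred in both libraries, 46 of the 151 kept in both being in the same class.

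Apln was a gene of the tip class. Its level there was 593 CPM (576 to 611) in PyMT and 926 CPM (901 to 952) in KPC, the highest of all 10 classes in each library. Cycling cells followed with 248 CPM in both libraries. The capillary class had 181 CPM in PyMT and 152 CPM in KPC, the class other had 166 and 221 CPM, and venule cells had 161 and 175 CPM. Tip cells were thus above capillary cells by a log2 ratio of 1.71 (1.64 to 1.79) in PyMT and of 2.60 (2.47 to 2.74) in KPC, and their intervals overlapped those of no other class. They made up 37.2% of the BEC UMIs of Apln in PyMT and 53.8% in KPC, from 1144 and 827 cells.

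Aplnr had another order. The venule class held the highest level in each library, with 621 CPM (581 to 662) in PyMT and 574 CPM (547 to 602) in KPC. In PyMT it was followed by the pericyte class with 521 CPM (399 to 668), the capillary class with 456 CPM, cycling cells with 383 CPM, the class other with 338 CPM and tip cells with 264 CPM. In KPC the order after venules was cycling cells with 441 CPM, the class other with 428 CPM, the capillary class with 411 CPM and tip cells with 272 CPM. Venule cells exceeded capillary cells by a log2 ratio of 0.44 in PyMT and 0.48 in KPC, and tip cells lay below them by -0.79 (-0.86 to -0.71) and -0.60 (-0.70 to -0.49). Tip cells were therefore the BEC class with the most ligand message and, apart from arteries, the least receptor message in both libraries. Neighbors whose difference included 0 in that order were venule and pericyte, and pericyte and capillary cells, in PyMT, and cycling, other and capillary cells in KPC.

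**Figure D1:**
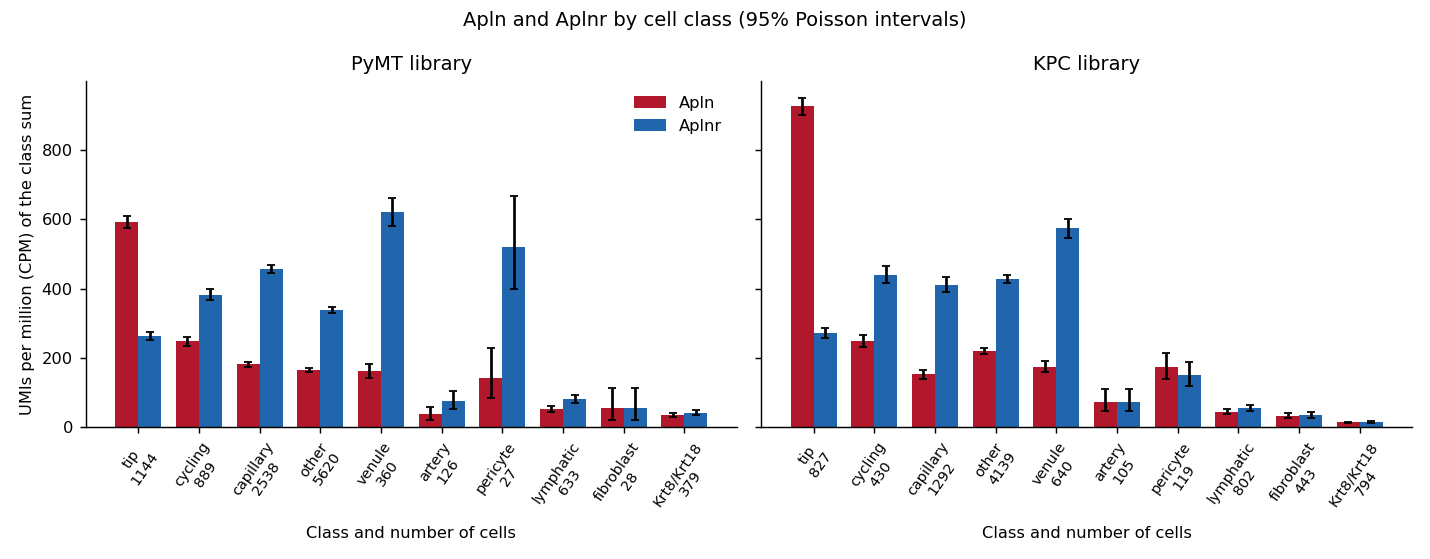
Bars give the CPM of the summed UMIs of Apln (red) and Aplnr (blue) in each class of the PyMT (left) and KPC (right) library with 95% Poisson intervals, and the number of cells stands under each class. Apln peaks in tip cells (593 and 926 CPM), Aplnr peaks in venules (621 and 574 CPM), and both are low in arteries.

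Arterial cells had little of either gene. Apln stood at 36.9 CPM (21.9 to 58.3) in PyMT and 74.2 CPM (47.5 to 110) in KPC, and Aplnr at 75.9 and 74.2 CPM. Against capillary cells these were log2 ratios of -2.30 and -1.04 for Apln and of -2.59 and -2.47 for Aplnr. As a share of the mean BEC level, the arterial class held 15.1% and 21.02% of Apln and 20.6% and 18.2% of Aplnr, whereas 7 pan-endothelial genes such as Cdh5 and Pecam1 had a median of 110% and 106% there. In the 126 PyMT and 105 KPC arterial cells both messages were thus low while the median of the pan-endothelial genes was not.

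The level in classes with few endothelial transcripts was read as a background, whose source, free RNA or doublets, was not tested. In the Krt8/Krt18 class Apln was at 14.2% and Aplnr at 11.3% of the BEC level in PyMT, beside a median of 14.6% for the 7 pan-endothelial genes, and both were at 3.91% in KPC, beside 5.12%. Fibroblasts of KPC held 9.11% and 8.43%, beside 7.88%. Both members were thus near the pan-endothelial share in these classes. After each cell was thinned to 2000 UMIs, 5.57% of the PyMT Krt8/Krt18 cells had an Apln UMI and 4.77% an Aplnr UMI, against 51.6% and 34.9% of tip cells. The corresponding KPC values were 2.92% and 3.30% against 68.3% and 32.7%. The median depth before thinning was 6939 UMIs in Krt8/Krt18 cells and 5783.5 in tip cells of PyMT, and 12688.5 and 5374 in KPC. In arterial cells 6.54% (2.67 to 13.02) of the PyMT and 8.96% (3.36 to 18.5) of the KPC cells had an Apln UMI. The interval includes the Krt8/Krt18 share of Apln in PyMT but not in KPC, while the 5.64% of KPC fibroblasts lies within the KPC interval. For Aplnr the shares were 11.2% (5.93 to 18.8) and 10.4%, with intervals above the Krt8/Krt18 share in both libraries. Arterial cells had a median of 3439 UMIs in PyMT and 2485 in KPC before thinning, fewer than Krt8/Krt18 cells. Thinning cells of unlike depth can leave unlike shares of background, so whether arterial Aplnr exceeded its background was not tested.

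Lymphatic cells had 51.3 and 45.2 CPM of Apln and 81.3 and 55.4 CPM of Aplnr, below every BEC class other than the arterial one. The pericyte class differed most between the libraries, as Aplnr was at 521 CPM in PyMT and 151 CPM in KPC, a log2 ratio of 1.79 (1.28 to 2.30), from 27 and 119 cells. In these cells the pan-endothelial genes had a median of 84.8% of the BEC level in PyMT and 56.1% in KPC, so they carried much endothelial RNA, and its part in the Aplnr level was not tested.

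The number of receptor UMIs per ligand UMI set the classes apart on a single scale that does not depend on depth. It is a ratio of 3′ tags and not of molecules per length, so it is read between classes only. Venule cells had 3.85 (3.34 to 4.45) Aplnr UMIs per Apln UMI in PyMT and 3.28 in KPC, and capillary cells had 2.52 and 2.70. Tip cells had 0.445 (0.422 to 0.470) and 0.294, the only BEC class with fewer receptor than ligand UMIs in both libraries. Krt8/Krt18 cells had 1.20 (0.912 to 1.57) and 1.15, and all BECs together had 1.51 and 1.15.

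The summed level of 4 immune genes, Ptprc, Tyrobp, Cd52 and Lyz2, was 0.67 to 17.5 CPM over the BEC classes of PyMT and 0 to 128 CPM over those of KPC. It was highest there in the class other and in capillary cells (87.9 CPM). KPC cells of the class other with fewer than 5 UMIs of these genes had 222 CPM of Apln and 430 CPM of Aplnr. The whole class had 221 and 428 CPM. The part of immune transcripts in the member levels of capillary cells was not tested.

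Over all BECs Apln was at 244 CPM in PyMT and 353 CPM in KPC, a log2 ratio of -0.53 (-0.57 to -0.49), and Aplnr was at 368 and 407 CPM, a log2 ratio of -0.15 (-0.18 to -0.11). Within tip cells the ratios were -0.64 (-0.70 to -0.58) for Apln and -0.04 (-0.14 to 0.06) for Aplnr. Other classes differed from the pooled values, as Apln in capillary cells was higher in PyMT by 0.25 (0.11 to 0.39), and in cycling cells Apln was at 248 CPM in both while Aplnr had -0.20 (-0.30 to -0.10). The direction of the Aplnr value over all BECs depended on how cells were weighted, and as the mean of the CPM of each cell it was 0.12.

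Whether ligand and receptor share cells was asked in the BECs. An Apln UMI was found in 3842 PyMT and 2300 KPC cells, an Aplnr UMI in 6278 and 3620 cells, and UMIs of both in 2570 and 1577 cells. Of the cells with Apln, 66.9% and 68.6% also had Aplnr, and of the cells with Aplnr, 40.9% and 43.6% also had Apln. At full depth, 16.4% of PyMT and 10.3% of KPC Krt8/Krt18 cells had an Apln UMI, and 15.0% and 12.3% an Aplnr UMI. The part of such background, or of doublets, in the cells with both genes was not tested. Within strata of class and depth, 2515 and 1530 such cells were expected if the genes fell on cells independently. The ratio of observed to expected was 1.02 (0.983 to 1.06) in PyMT and 1.03 (0.981 to 1.08) in KPC, and both intervals include 1. These are Poisson intervals of the observed count, wider than its spread when the numbers of cells with each gene are fixed. That they include 1 therefore does not decide whether the genes fell on cells independently. Without strata, when neither class nor depth was held fixed, the ratio was 1.14 and 1.41.

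The ratio was then set beside that of every other gene. Among 11375 PyMT genes paired with Apln the median ratio was 1.005, and 64.7% of them lay below the value of Aplnr. In KPC 72.5% of 10949 genes lay below it. From the 5th to the 95th percentile the genes spanned 0.842 to 1.12 in PyMT and 0.855 to 1.10 in KPC, and the receptor lay inside this range. All genes with at least 20 expected shared cells were included, so the range holds the counting noise of rare genes. Aplnr had 2515 and 1530 expected cells, so its place inside the range does not decide whether shared cells were more or fewer than expected.

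**Figure D2:**
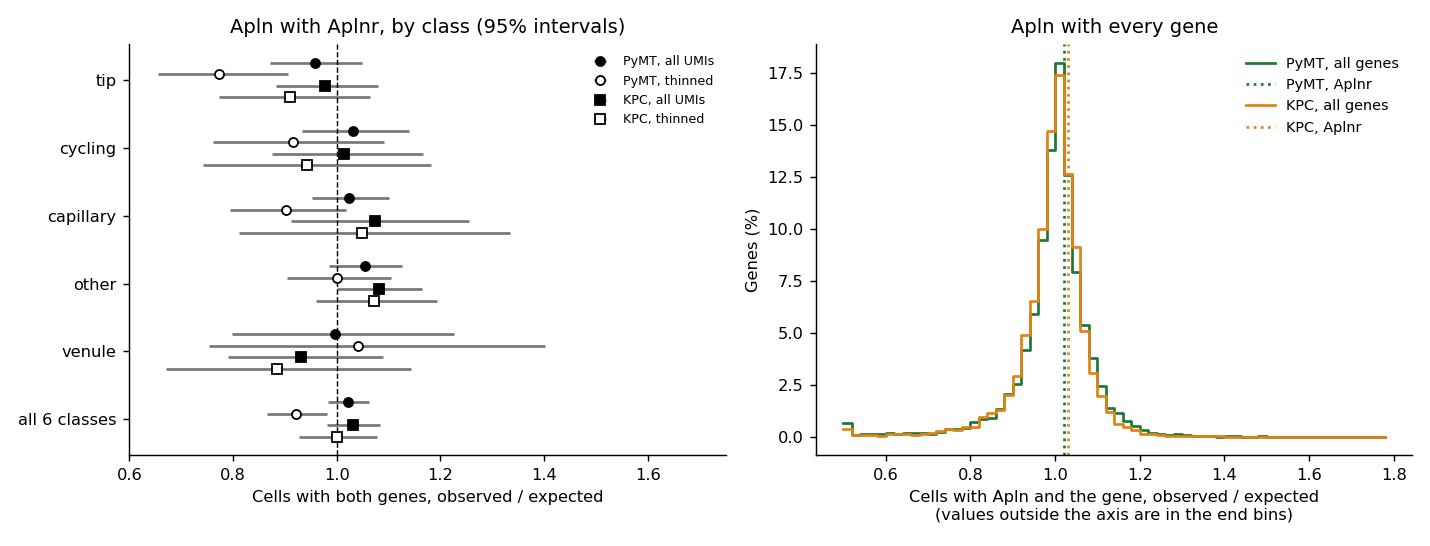
Left, points give the observed over expected number of cells with UMIs of both genes by class (95% intervals), for all UMIs within depth strata (filled) and for cells thinned to 2000 UMIs (open), with circles for PyMT and squares for KPC. Right, lines give the percent of all genes by their ratio with Apln, and the dotted lines at 1.02 and 1.03 mark Aplnr, above 64.7% of the genes in PyMT and 72.5% in KPC.

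Thinning each cell to 2000 UMIs set all cells to the same depth and left out 1322 PyMT and 2902 KPC BECs. Within classes the ratio over the BECs was then 0.922 (0.865 to 0.982) in PyMT and 0.9997 (0.927 to 1.08) in KPC. In PyMT tip cells 153 cells held both genes where 198 were expected, a ratio of 0.774 (0.656 to 0.906), and in KPC tip cells 158 did where 174 were expected, a ratio of 0.910 (0.774 to 1.06). The intervals of the other classes included 1 in both libraries. With all UMIs and depth strata the tip cells had ratios of 0.958 (0.872 to 1.05) and 0.977 (0.882 to 1.08). The class other then had 1.05 (0.986 to 1.13) in PyMT and 1.08 (1.001 to 1.17) in KPC, the only interval of a class that lay above 1. The ratio of tip cells was thus below 1 in both libraries with and without thinning. Among the classes, only thinned PyMT tip cells had a Poisson interval wholly below 1. As these intervals are wide, those that include 1 do not decide whether shared cells were fewer than expected.

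At this depth the states of the cells could be compared between classes. In tip cells 37.7% of PyMT and 48.0% of KPC cells had Apln alone, 13.9% and 20.3% had both, and 20.9% and 12.4% had Aplnr alone. In venules 7.37% and 8.82% had Apln alone, 15.1% and 10.9% both, and 49.5% and 51.6% Aplnr alone. Capillary cells also had more cells with Aplnr alone than with Apln alone, with 12.1% and 9.81% Apln alone and 42.0% and 39.6% Aplnr alone. Neither gene was found in 34.7% and 39.4% of capillary cells, against 28.1% and 28.7% of venule cells. In KPC thinning kept 591 capillary cells and left out 701. In arteries 83.2% and 85.1% of cells had neither.

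**Figure D3:**
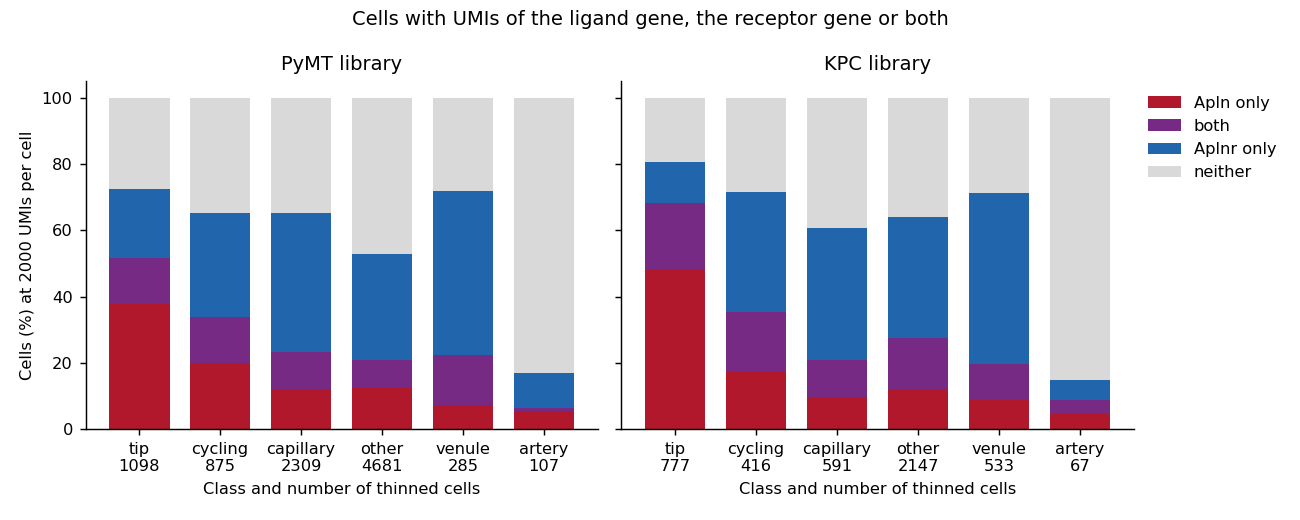
Stacked bars give the percent of cells, thinned to 2000 UMIs, with Apln alone (red), both genes (purple), Aplnr alone (blue) or neither (gray) in the 6 BEC classes of each library, with the number of thinned cells under each. Apln alone is the largest state in tip cells (37.7% and 48.0%) and Aplnr alone the largest in venules (49.5% and 51.6%).

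Apln UMIs were concentrated in few cells. The 5% of BECs with the most of them held 43.4% of the Apln UMIs in PyMT and 50.03% in KPC, against 24.7% and 30.0% for Aplnr. Cells with at least 8 Apln UMIs numbered 321 and 347, and 62.3% and 74.1% of them were in the tip class. The highest count in a cell was 34 and 63 for Apln and 18 and 25 for Aplnr.

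Inside the tip class the levels of the 2 genes ran against each other, as they also did in some other classes. In PyMT, Aplnr stood at 343 CPM (317 to 370) in tip cells with no Apln UMI, at 351 CPM with 1, at 317 CPM with 2 to 3, at 209 CPM with 4 to 7 and at 150 CPM (132 to 168) with 8 or more. In KPC the values in the same order were 332 (292 to 377), 346, 350, 289 and 190 CPM (172 to 210). The level of the receptor was thus flat up to 3 Apln UMIs and lower beyond, with a log2 ratio of the last to the first bin of -1.20 (-1.41 to -0.99) in PyMT and -0.81 (-1.04 to -0.57) in KPC. Apln, read the other way, was at 799 CPM in PyMT tip cells without Aplnr and at 327 CPM in those with 4 or more UMIs, and at 1353 and 515 CPM in KPC. Cells in the last bins were also deeper, with a median of 8353 against 4580.5 UMIs in PyMT and 6894 against 3810 in KPC for the bins of Apln. In thinned KPC cells the ratio of Aplnr was -1.79 (-3.12 to -0.72), and with tip cells defined by 4 Angpt2 UMIs it was -0.46 (-0.90 to 0.02), an interval that includes 0. With classes set after thinning the KPC ratio was -0.60 (-1.98 to 0.54), which includes 0 as well. Outside the tip class, Aplnr by Apln and Apln by Aplnr UMIs had -0.48 (-0.80 to -0.18) and -0.54 (-0.74 to -0.34) in PyMT cycling cells. KPC venule cells had -0.51 (-0.80 to -0.22) and -0.79 (-1.15 to -0.42). In the PyMT class other Aplnr by Apln had -0.68 (-1.06 to -0.33). Both intervals included 0 in PyMT venule and KPC cycling cells, and Apln by Aplnr was positive in KPC capillary and other cells.

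The same opposite course was seen along Angpt2, which encodes the Tie2 ligand angiopoietin-2 and defines the tip class, so the ends of this course repeat the class levels. From BECs with 0 to those with 8 or more Angpt2 UMIs, Apln went from 164 to 1181 CPM in PyMT and from 168 to 1429 CPM in KPC. Aplnr went from 400 to 137 CPM and from 449 to 152 CPM. Both courses were stepwise, as cells with 1 Angpt2 UMI, which are outside the tip class, already had 241 and 384 CPM of Apln and 338 and 420 CPM of Aplnr.

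**Figure D4:**
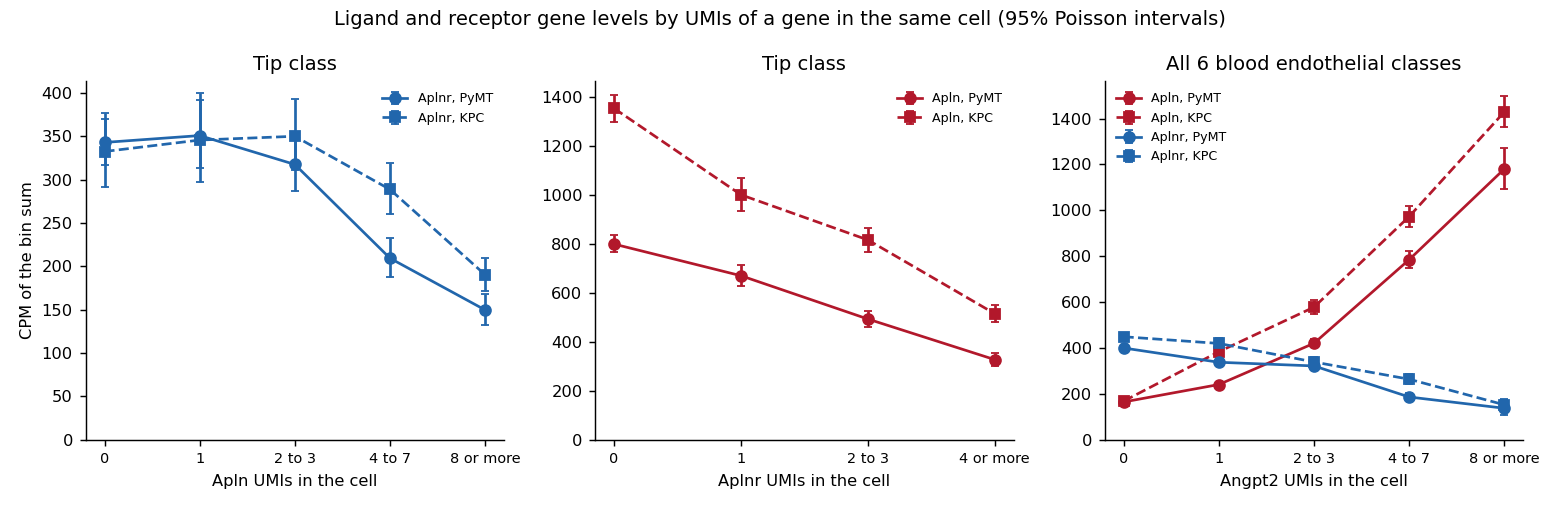
Points give CPM with 95% Poisson intervals in bins of cells by their UMIs of Apln (left, tip class), Aplnr (middle, tip class) or Angpt2 (right, all BECs), with circles and solid lines for PyMT and squares and dashed lines for KPC. Aplnr (blue) is lowest where Apln or Angpt2 UMIs are most numerous (150 and 190 CPM, and 137 and 152 CPM), and Apln (red) is highest where Angpt2 is (1181 and 1429 CPM).

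Cycling tip cells had less of the ligand message, and no difference in the receptor message was detectable. Tip cells that also met the cycling rule had 532 CPM of Apln in PyMT and 729 CPM in KPC, against 617 and 986 CPM in the other tip cells, log2 ratios of 0.21 (0.12 to 0.31) and 0.43 (0.33 to 0.54) for cells outside the rule over cells meeting it. For Aplnr the same ratios were 0.08 (-0.06 to 0.23) and -0.05 (-0.22 to 0.13). Tip cells meeting the cycling rule were deeper, with a median of 8998 against 5101 UMIs in PyMT and 9898.5 against 4845 in KPC. The part of depth or doublets in the Apln ratios was not tested.

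Next, BECs with Apln and no Aplnr UMI (1272 in PyMT, 723 in KPC) were set against those with Aplnr and no Apln UMI (3708 and 2043) over 6002 genes with at least 200 UMIs in each library. Median depths were alike, with 4192.5 and 3908.5 UMIs in PyMT and 3480 and 3190 in KPC. A log2 ratio of at least 1 in both libraries was met by 19 genes (0.317% of those tested) on the Apln side and by 24 (0.4%) on the Aplnr side. In PyMT alone 25 (0.417%) and 31 genes (0.516%) met it, and in KPC alone 66 (1.1%) and 77 (1.28%). Tip cells made up 25.6% and 38.3% of the Apln cells but 5.58% and 3.67% of the Aplnr cells, so the pooled ratios carry this mix of classes. Within the tip class, which held 325 and 277 Apln cells and 207 and 75 Aplnr cells, the 10 genes with the largest ratios on the Apln side kept their direction in both libraries, and so did 9 of the 10 on the Aplnr side. These genes were chosen by pooled ratios that include the cells of this class, so this is a description and not a separate test. The share of all tested genes that kept their direction there was not computed. The intervals within that class included 0 in both libraries for Slc6a6 (-0.49 and -0.36) and Ackr1 (-1.39 and -1.25), in PyMT for Tnfsf10 and in KPC for Lipe.

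Esm1 had the largest ratio on the Apln side in PyMT and Pgf in KPC. Esm1, the proteoglycan endocan of tip cells, stood at 560 against 73.2 CPM in PyMT and at 1155 against 192 CPM in KPC, log2 ratios of 2.94 and 2.59, and within tip cells of 3.34 and 1.84. Pgf, a ligand of VEGF receptor 1, had ratios of 2.48 and 4.98, and within tip cells of 2.59 and 3.87. Adm, which encodes another vasoactive peptide, adrenomedullin, had 2.04 and 3.44, and Edn1, the precursor of the vasoconstrictor endothelin-1, had 1.89 and 3.15. Angpt2 itself had 2.04 and 3.29, and within tip cells 0.85 and 1.13. The matricellular genes Ctgf (2.16 and 3.30), Cyr61 (1.31 and 1.40) and Thbs1 (2.19 and 1.85), the chemokine gene Ccl2 (1.45 and 2.67, and 0.52 within PyMT tip cells) and the hypoxia-inducible Ankrd37 (1.22 and 1.72) completed the 10 largest.

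On the Aplnr side, Selp, which encodes P-selectin for leukocyte rolling, had log2 ratios of -1.57 and -1.59, and Ackr1, the chemokine-binding receptor of venules, had -1.30 and -1.25. Both help to define the venule class. Prcp stood at 176 CPM in Apln cells against 428 CPM in Aplnr cells of PyMT and at 96.2 against 297 CPM in KPC, log2 ratios of -1.28 and -1.63, and of -1.92 and -2.00 within tip cells. It encodes prolylcarboxypeptidase, an enzyme that removes the last residue of peptides ending in a proline followed by another residue, as apelin-13 does. Slco2a1, the prostaglandin transporter, had -1.25 and -1.76, Lipe, the hormone-sensitive lipase, -1.85 and -1.64, and Slc6a6, the taurine transporter, -1.34 and -1.40. Serpinb1a, a protease inhibitor, had -1.51 and -1.23, Tnfsf10, the death ligand TRAIL, -1.34 and -1.21, and Ehd3, of endocytic recycling, -1.19 and -1.41. The hemoglobin gene Hba-a2 stood at 6.58 against 16.9 CPM in PyMT and at 0.33 against 30.2 CPM in KPC, but within PyMT tip cells its UMIs were all in Apln cells.

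**Figure D5:**
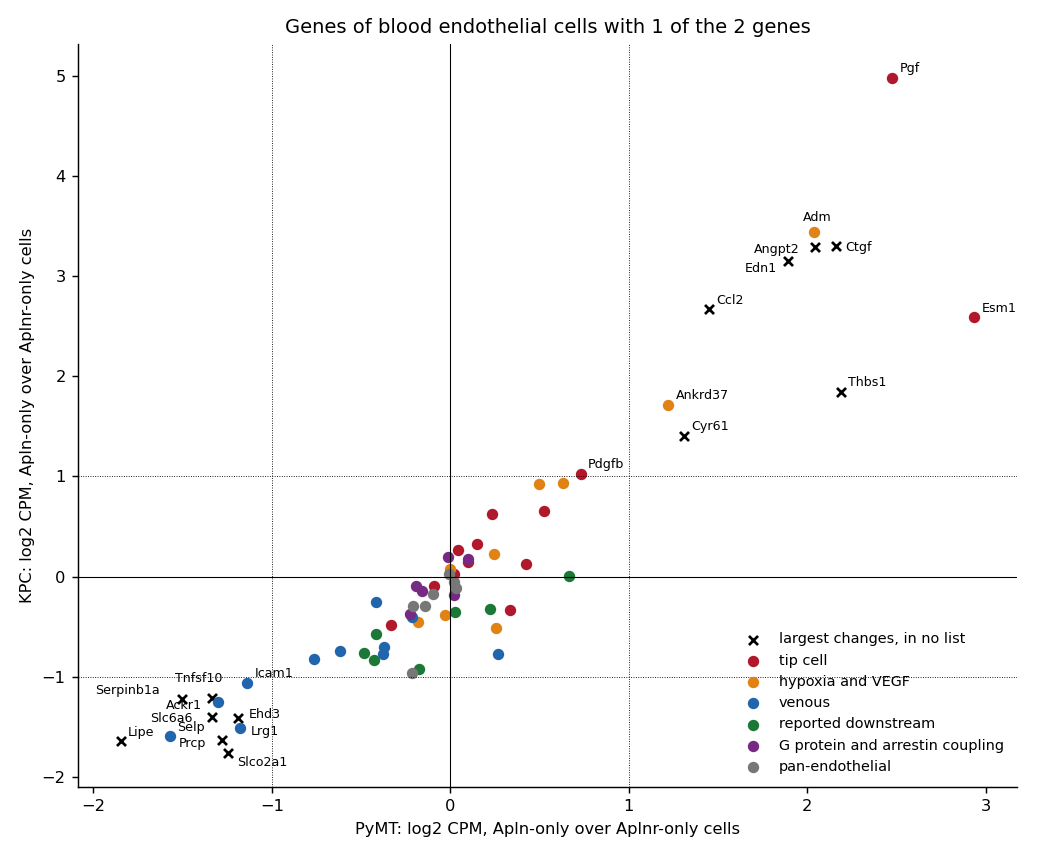
Each point is a gene, placed by its log2 CPM ratio of Apln-only over Aplnr-only BECs in PyMT (horizontal) and KPC (vertical), colored by gene list, with crosses for the genes of largest ratio that are in no list (Hba-a2 lies below the axis and is not drawn) and dotted lines at -1 and 1. Esm1, Pgf and Adm lie far out on the Apln side, Lrg1, Selp, Ackr1 and Icam1 on the Aplnr side, and the pan-endothelial genes near 0 except Tie1 (-0.21 and -0.96).

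Lists of genes around the pathway were counted in the same comparison. Of 14 tip cell genes 13 had enough UMIs, and 2, Esm1 and Pgf, passed the fold in both libraries, with list medians of 0.24 and 0.27. Of 12 genes of hypoxia and VEGF 9 had enough UMIs and 2, Adm and Ankrd37, passed, with medians of 0.25 and 0.22. The glucose transporter gene Slc2a1 (0.63 and 0.93) and the glycolytic Pgk1 (0.50 and 0.92) lay below the fold. Of the same list, Epas1 (-0.18 and -0.45) lay on the Aplnr side in both libraries, and Flt1 had 0.25 in PyMT and -0.51 in KPC. Among the tip cell genes, Nrp1 (-0.33 and -0.48) lay on the Aplnr side in both libraries. So did Plxnd1 (-0.09 and -0.09), where both intervals include 0. Kcne3 had 0.33 in PyMT and -0.34 in KPC, and within tip cells 0.05 and -1.29. Hif1a, the oxygen-regulated factor, stood at 204 CPM on both sides in PyMT and at 214 against 203 CPM in KPC. Of 12 venous genes 11 had enough UMIs and 4 passed on the Aplnr side, namely Lrg1 (-1.18 and -1.51), Icam1 (-1.14 and -1.06), Ackr1 and Selp, with medians of -0.62 and -0.78. Ackr1 and Selp help to define the venule class, and Vwf of this list had 0.27 in PyMT and -0.77 in KPC. Over all 6002 genes the median was -0.01 in both libraries, and 0.317% passed in both on the Apln side and 0.4% on the Aplnr side. The 7 pan-endothelial genes had medians of -0.10 and -0.17, and 0 passed.

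Among the listed genes that act before or after the receptor, 0 of those with enough UMIs passed the fold in either library, where 0.417% to 1.28% of all genes tested did so on either side, so a count of 0 says nothing particular to them. Of 6 genes of peptide processing, Furin and Pcsk7, convertases of secreted precursors, had enough UMIs, with log2 ratios of 0.02 and 0.01 and of -0.07 and -0.39. Of 8 genes of G protein and arrestin coupling 6 had enough UMIs and 0 passed, with medians of -0.09 and -0.12. Gnai2, an inhibitory G protein subunit, stood at 1257 against 1436 CPM in PyMT and 1288 against 1375 CPM in KPC. Of 8 genes reported downstream of the receptor 7 had enough UMIs and 0 passed, with medians of -0.17 and -0.57. Among them the flow-responsive factors Klf2 (-0.17 and -0.92) and Klf4 (-0.43 and -0.84) and the connexin gene Gja4 (-0.48 and -0.77) had negative ratios in both libraries over the pooled classes. In PyMT the sign turned within some of the classes, as Klf2 had 0.11 in the class other and Gja4 had 0.28 in capillary and 0.52 in tip cells, where both of its intervals include 0. Fgfr1, a growth factor receptor gene, had 0.67 in PyMT and 42.4 against 42.3 CPM in KPC.

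Other enzymes that act on secreted peptides and precursors were highest in fibroblasts, lymphatic cells and arteries. Mme, or neprilysin, was at 0.409 and 0.188 CPM in BECs and at 39.3 CPM in the 28 PyMT fibroblasts, but at 0.847 CPM in the KPC fibroblasts. The convertase gene Pcsk5 was at 111 CPM in KPC but 6.15 CPM in PyMT arteries, and at 228 CPM in PyMT and 48.7 CPM in KPC fibroblasts. Over all kept cells Mme had 44 UMIs in PyMT and 9 in KPC, and Pcsk5 had 45 in PyMT. These class levels thus rest on few UMIs. Pcsk6 was at 69.0 and 116 CPM in lymphatic cells. Apela, the second ligand, had 0 UMIs in PyMT and 3 UMIs in 2 cells of KPC.

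In lung capillaries Apln and Aplnr are known to mark separate cells, aerocytes and general capillary cells, so markers of both were read here. Of 6 aerocyte genes 3 had enough UMIs, with medians of 0.17 in PyMT and -0.88 in KPC, and Car4, which helps to define the capillary class, was on the Aplnr side with -0.55 and -1.12, while Chst1 was on the Apln side with 0.55 and 0.46. All 6 general capillary genes had enough UMIs, with medians of -0.01 and 0.01, and of these Kit (0.37 and 1.13) and Gpihbp1 (0.36 and 0.82) were on the Apln side and Tek (-0.66 and -1.005) and Plvap (-0.32 and -0.66) on the Aplnr side. The 2 lists thus had no common direction over the pooled classes of these tumors. Within the capillary class, Car4 had 0.08 (-0.02 to 0.18) and 0.04 (-0.35 to 0.42), and both intervals include 0. Chst1 had 0.34 (-0.02 to 0.68) and 0.99 (0.01 to 1.87) there.

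Across classes the course of other genes was compared with that of each member by Pearson's r of log2(CPM + 10), over the 8 PyMT and 10 KPC classes with at least 50 cells, which share a library and its background RNA. Among 9765 genes the course most like that of Apln was that of Coro1a, an actin-binding coronin (r = 0.953 in PyMT and 0.959 in KPC), followed by Pde2a, a phosphodiesterase of cyclic nucleotides (0.924 and 0.949), B4galt3, Chst7, Adamts7 and Hcls1. The course most like that of Aplnr was that of Bace2, an aspartyl protease (0.960 and 0.972), followed by Ndufa8 (0.970 and 0.945), Pcdh17, Ehd3, Gm32688 and Rab5c. Aplnr ranked 58 among the genes like Apln (0.779 and 0.816), and Apln ranked 112 among those like Aplnr. These r include classes low in both genes, such as lymphatic, Krt8/Krt18 and arterial cells. They do not show a common order among BEC classes, where tip cells had the most Apln and, apart from arteries, the least Aplnr.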

How the data were processed

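Reads were aligned to mm10 and UMIs were counted per gene and barcode by the authors with Cell Ranger (3.0 in the submitters' processing notes, 3.0.2 in the file header), and the deposited values are raw counts, not normalized, for every barcode assigned to a cell. The kit version is given differently in the study's sources, and the number of mice per library was not given in the sources used here.

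From these counts CPM of summed UMIs per class were computed with exact Poisson intervals, log2 ratios with exact conditional binomial intervals and shares with Clopper-Pearson intervals, all at 95%. Classes followed UMI rules applied in order: Krt8+Krt18 at least 5, Col1a1+Col1a2 10, Mmrn1+Prox1 3, Notch3+Higd1b 2, Ackr1+Selp 3, Gja5+Sema3g 2, Angpt2 2, Top2a+Mki67 3 and Car4+Cd300lg 2, then other. Cells expected to hold both genes were summed over class and 10 depth strata. No doublet caller was run, so doublets remain, and leaving out the deepest 8% of barcodes and cells meeting more than 1 rule was tried in its place. Thinning used seed 1. Genes beside the members were named by rank, namely the 6 most like each member over classes and the 10 per side with the largest smaller log2 ratio of the 2 libraries, or came from lists. The class rules, members and lists were chosen with earlier results of these data known. Python 3.11.15, numpy 2.4.6, scipy 1.17.1 and pandas 2.3.3 were used, and the ratio and same-cell steps were tested on simulated data. The values of 1 gene of the peptide processing list are not reported here.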

Additional observations from a re-analysis of the deposited data

Results flagged for a closer look

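Some ratios of the 2 genes had opposite signs in the PyMT and KPC libraries, and with 1 library per model the difference was not tested. Apln in venule over capillary cells was -0.17 (-0.37 to 0.02) in PyMT and 0.20 (0.02 to 0.38) in KPC on the log2 scale. For the class other over capillary cells, Apln was -0.13 (-0.21 to -0.05) in PyMT and 0.54 (0.40 to 0.68) in KPC, and Aplnr was -0.43 (-0.48 to -0.38) and 0.056 (-0.03 to 0.14). Aplnr in cycling over capillary cells was -0.25 (-0.32 to -0.18) in PyMT and 0.10 (-0.01 to 0.21) in KPC.

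Within capillary cells, Apln in cells with 4 or more over cells with 0 Aplnr UMIs had a log2 ratio of -0.41 (-0.59 to -0.23) in PyMT and of 1.57 (1.22 to 1.92) in KPC. Aplnr in cells with most over cells with 0 Apln UMIs had -0.68 (-1.02 to -0.36) in PyMT, where the highest bin was 8 or more, and 0.30 (-0.03 to 0.61) in KPC, where it was 4 to 7. Within the class other, Apln by Aplnr UMIs had -0.051 (-0.20 to 0.10) in PyMT and 0.49 (0.33 to 0.64) in KPC. The KPC capillary cells without an Aplnr UMI had a median of 1481.5 UMIs and those with 4 or more had 5406, against 3394 and 6249 in PyMT, and the part of depth in these ratios was not tested.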

How the results depend on the processing

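No paired analysis was possible because each tumor model had 1 library. Of 284 alternative values, 204 stayed within the interval of the value reported with its sign (counts of genes within 1.5 times). The direction of Apln and Aplnr in tip over capillary cells, of Aplnr in venule over capillary cells and of the opposite course within tip cells held in both libraries under every alternative run (within tip cells, those that left at least 20 cells in the highest bin). Thinning left enough cells only for Aplnr by Apln UMIs in KPC, so in PyMT the course within tip cells was not read at equal depth. Alternatives for the course within tip cells and for the counts of genes were chosen after seeing the data.

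Values below are log2 ratios unless stated, PyMT before KPC where both are given. In tip over capillary cells, Apln was 1.94 and 3.27 with classes set after thinning, 1.82 and 3.42 as the mean of single cells, 2.00 and 2.74 with cells meeting no more than 1 rule, 2.17 and 2.77 with tip cells from 4 Angpt2 UMIs, 1.799 and 2.76 without the deepest 8%, 1.25 in PyMT from 1 Angpt2 UMI and 2.37 in KPC under the stricter cell filter. Aplnr in tip over capillary cells was -1.15 and -1.03 with classes set after thinning, -1.39 and -0.88 from 4 and -0.64 and -0.39 from 1 Angpt2 UMI, -1.04 in PyMT with cells meeting no more than 1 rule, and in KPC -0.75 when thinned or under the stricter filter and -0.39 as the mean of single cells. Aplnr in venule over capillary cells of KPC was 0.32 under the stricter filter, 0.38 when thinned and 0.78 as the mean of single cells.

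Apln in venule over capillary cells had no stable sign. In KPC it was -0.21 with cells meeting no more than 1 rule, -0.12 when thinned, -0.28 with classes set after thinning, -0.024 from 4 and 0.51 from 1 Angpt2 UMI and 0.49 as the mean of single cells, and in PyMT -0.60 with no more than 1 rule and -0.42 with classes set after thinning. Apln in the class other over capillary cells of PyMT was 0.16 with classes set after thinning and 0.029 from 4 Angpt2 UMIs.

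The PyMT over KPC ratio of Apln was -0.44 without mitochondrial and ribosomal protein genes, -0.66 under the stricter filter, -0.67 when thinned, -0.64 with classes set after thinning and -0.27 as the mean of single cells. For Aplnr it was -0.051, -0.22 and -0.21 in the first 3 of these and 0.12 as the mean of single cells.

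The ratio of shared cells was 1.14 and 1.41 without strata, 0.938 and 0.947 with at least 2 UMIs of each gene, and in PyMT 0.922 when thinned and 0.949 with classes set after thinning. Within tip cells, Aplnr by Apln UMIs was -0.83 and -0.46 from 4 Angpt2 UMIs, -0.97 in PyMT from 1 Angpt2 UMI, and -1.79 when thinned and -1.13 without the deepest 8% in KPC. Apln by Aplnr UMIs was -0.94 and -1.16 from 4 Angpt2 UMIs, and in PyMT -0.997 from 1 Angpt2 UMI and -0.95 with no more than 1 rule. Genes past the fold numbered 9 on the Apln and 8 on the Aplnr side in thinned cells, of which 9 and 7 were among those reported. With a minimum of 50 UMIs there were 53 on the Aplnr side. The cause of these shifts was not tested.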
